A study of Mus musculus with 12 samples.

Results

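The proteasome genes described here are the constitutive subunits, activators and assembly factors of the mouse proteasome. They were taken by name, as every gene whose symbol is Psm with 1 letter from a to g and a number, without pseudogenes and without the interferon-inducible subunits Psmb8, Psmb9 and Psmb10. This gave 44 genes, the same 44 among the 16805 genes of the neutrophil table and the 16954 genes of the monocyte table. RNA had been sequenced from cells selected from the spleens of wild-type (WT) mice around CTT, a cryo-thermal ablation of the tumor. The 12 libraries formed 4 groups of 3. The neutrophil groups, selected with an antibody to Ly6G, came from mice 12 h after CTT and from tumor-bearing control mice without the therapy. The monocyte groups, selected with an antibody to CCR2, came from mice 5 days after CTT, given anti-Ly6G, an antibody that targets neutrophils, or not given it. Both monocyte groups had therefore received CTT, and there is no monocyte group without it. The labels call the libraries biological replicates but do not say how many mice each one holds, nor the purity of the selected cells, so a p-value here speaks only of variation among these libraries, which may be technical.

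The proteasome is the main protease of the cytosol and nucleus and degrades proteins that carry ubiquitin. Its 20S core is a barrel in which outer rings of alpha subunits guard the entrance and inner rings of beta subunits hold the catalytic sites. The 19S cap binds and deubiquitinates substrates, and its ring of ATPases unfolds them and opens the core. Other activators can take the place of the 19S cap, and dedicated chaperones assemble core and cap. In leukocytes, interferon-inducible catalytic subunits can replace the constitutive ones, which changes the peptides available for MHC class I presentation.

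The neutrophil libraries held between 30942849 and 34935547 counts and the monocyte libraries between 31865982 and 35956571. Low counts limit the precision of Psma8 most, and that of other low genes such as Psmg3 to a lesser degree. The markers of the labelled cell types were present but were not the only ones. In the neutrophil libraries the 12 neutrophil markers summed to between 7712 and 12820 CPM (counts scaled to a common library size) after CTT and between 4124 and 6091 CPM in controls, while the 8 B cell markers summed to between 5880 and 6487 CPM after CTT and between 2911 and 7333 CPM in controls. Ly6g itself, the gene of the selection antigen, was at 12.7, 19.3 and 25.5 CPM after CTT and at 9.52, 14.7 and 11.2 CPM in controls. In the monocyte libraries it was at 62.7, 57.1 and 48.5 CPM after anti-Ly6G with CTT and at 16.1, 11.7 and 13.1 CPM after CTT alone. Ccr2, the selection antigen of the monocytes, was at 587, 439 and 512 CPM after anti-Ly6G with CTT and at 264, 190.5 and 194 CPM after CTT alone. Csf1r, another monocyte marker, went the other way, at 1638, 1615 and 1524 CPM against 3038, 1947 and 2073 CPM. All 10 monocyte markers summed to between 4669 and 5377 CPM after anti-Ly6G with CTT and between 3806 and 5832 CPM after CTT alone. These ranges overlapped. The libraries are therefore called by their labels, and the share of the labelled cells in them is unknown.

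All 44 genes had reads in both cell types, and 43 of them had a mean above 1 FPKM, a count scaled to gene length and library total, used here because it allows genes of different length to be compared. The 2 tables were normalized separately, so levels set side by side across cell types are a description. Psme1, an alpha subunit of the PA28 activator that interferon raises, was highest, with group means of 215, 216, 204 and 198 FPKM in CTT neutrophils, control neutrophils, anti-Ly6G with CTT monocytes and CTT monocytes, in that order. Psmb1, a non-catalytic beta subunit, followed with 139, 156, 137 and 135 FPKM in the same order. Psmb4, another non-catalytic beta subunit, came next with 86.2, 121, 146 and 125 FPKM. The ranges of Psme1 (186 to 246 FPKM over the 12 libraries) and Psmb1 (128 to 173 FPKM) did not overlap, whereas those of Psmb1 and Psmb4 (78.0 to 166 FPKM) did.

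At the other end, Psmf1, which encodes the proteasome inhibitor PI31, averaged 10.8 FPKM over the 4 groups, and Psmd9, a chaperone of the ATPase ring, averaged 8.42 FPKM. Their ranges overlapped. Psma8, the alpha subunit of the testis proteasome, averaged 0.530 FPKM and never exceeded 1.10 FPKM in a library. Apart from Psma8, the 14 subunits of the 20S core lay between 38.2 and 142 FPKM, a 3.71-fold range, and the 17 subunits of the 19S cap between 24.9 and 98.1 FPKM, a 3.93-fold range. The transcripts of subunits that form 1 particle were therefore not equally abundant. The 7 assembly chaperones were lower, with averages over the 4 groups from 8.42 to 23.6 FPKM, below the 24.9 FPKM of Psmd11, the lowest 19S subunit. The order of the genes was similar in both cell types: the mean FPKM of CTT neutrophils and CTT monocytes had a Spearman correlation of 0.93 across the 44 genes. Those points share gene lengths and library preparation, and genes are not independent replicates.

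**Figure D1:**
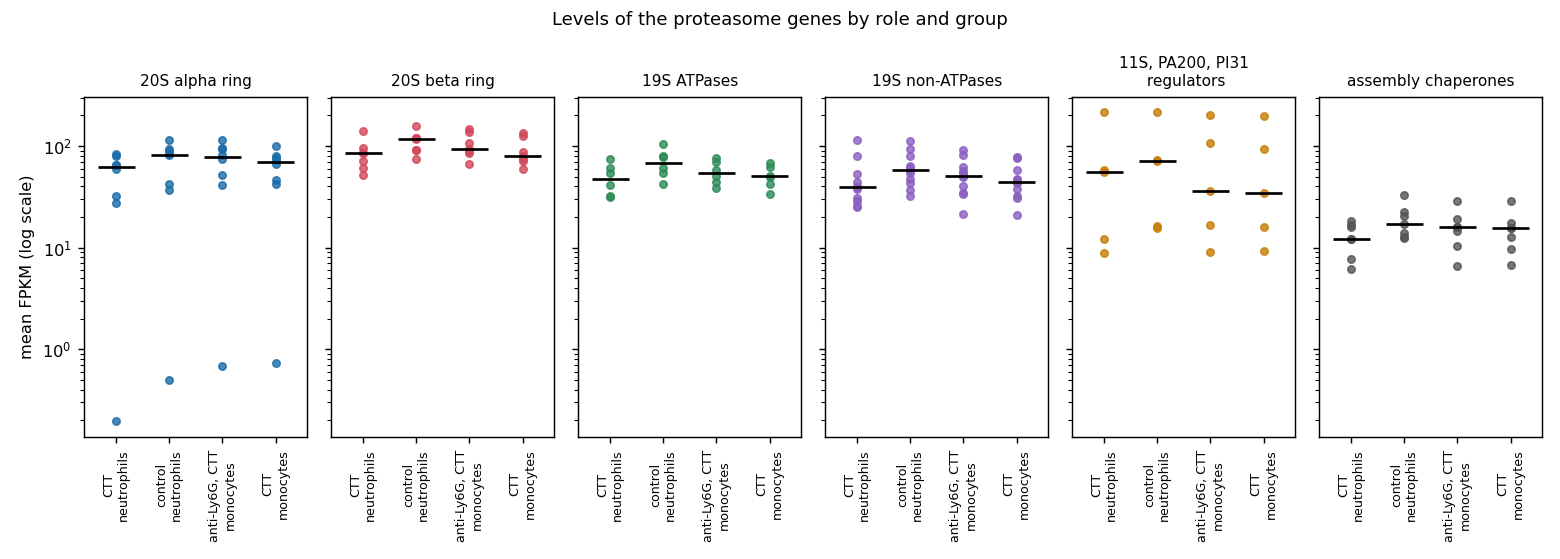
Mean FPKM (log scale) of each proteasome gene in the 4 groups, split by role; each point is the mean of 3 libraries for 1 gene and each bar the median of the role. The median of the assembly chaperones, 12.3 to 16.9 FPKM, lies below the medians of the core and cap roles in every group, and Psma8 lies far below the rest of the alpha ring.

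In monocytes, 12 of the 44 genes rose after anti-Ly6G with CTT relative to CTT alone and 0 fell (edgeR quasi-likelihood test, adjusted p under 0.05 over all 13294 tested genes). That is 27.3% of the genes, against 10.2% of all tested genes that rose and 5.12% that fell. The changes were small: the 12 genes rose 1.17-fold to 1.30-fold. The other 32 did not pass, and the 3 with a log2 fold change below 0 had adjusted p-values between 0.929 and 0.972. DESeq2 called 13 higher and 0 lower, and limma-voom 12 and 0. Of all 13294 tested genes, DESeq2 called 1566 higher (11.8%) and 1204 lower, and limma-voom 1367 (10.3%) and 653. Of the 12 genes called by edgeR, DESeq2 shared 12 and limma-voom 11. The log2 fold change was above 0 for 41 genes and below 0 for 3, with a median of 0.16 over the 44 genes beside −0.0044 over all genes. The lowest anti-Ly6G with CTT library exceeded the highest CTT library for 31 of the 44 genes (70.5%), against 20.6% of all tested genes. Together the 44 genes took 0.385%, 0.369% and 0.374% of all counts after anti-Ly6G with CTT and 0.339%, 0.341% and 0.339% after CTT alone. A changed share of a cell type and a changed RNA level per cell cannot be told apart in such bulk samples.

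**Figure D2:**
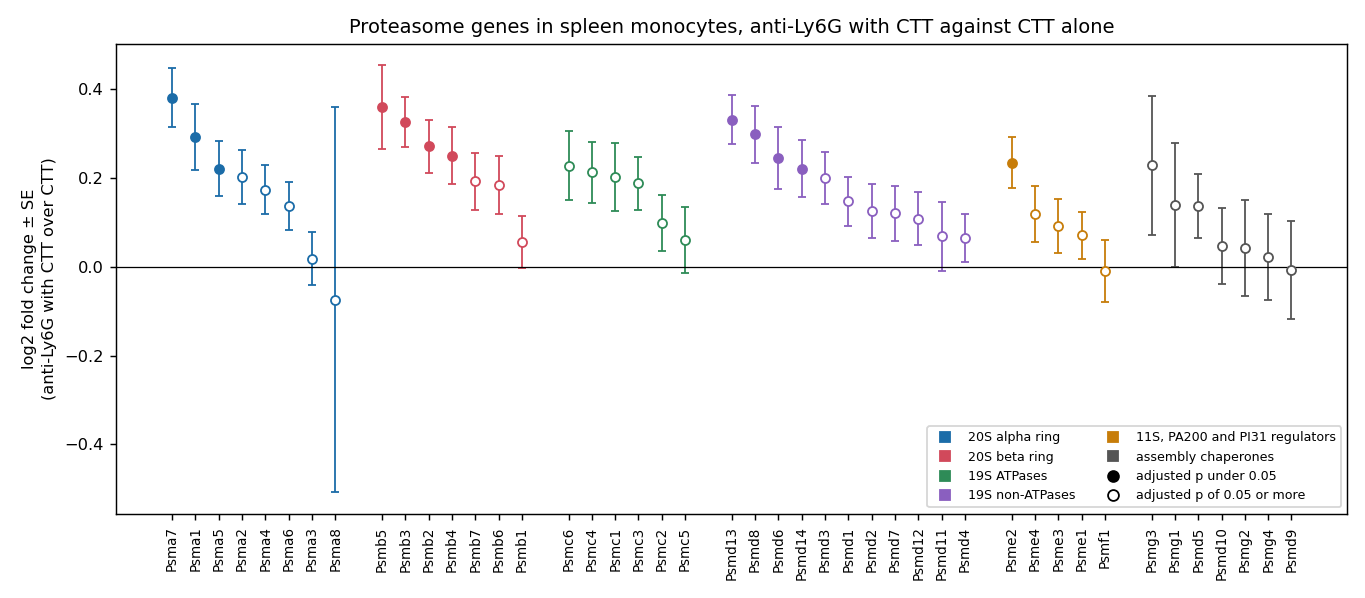
Log2 fold change with its standard error (y axis) for each of the 44 proteasome genes (x axis, grouped by role and sorted within it), monocytes after anti-Ly6G with CTT over monocytes after CTT alone. Filled points have an adjusted p under 0.05; 41 of the 44 points lie above 0 and the filled ones are in the rings of the core, the 19S non-ATPases and Psme2.

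In the alpha ring, which gates the core, 3 of 8 genes rose, with a median log2 fold change of 0.19. Psma7 had 158, 142 and 147 CPM in monocytes after anti-Ly6G with CTT, against 117, 108 and 119 CPM in monocytes after CTT alone. Each anti-Ly6G library was above each CTT library, and the log2 fold change was 0.38 ± 0.067 (SE; edgeR adjusted p = 0.00663), the largest among the 44. Psma1 had 127, 122 and 116 CPM in monocytes after anti-Ly6G with CTT, against 109, 92.9 and 96.5 CPM in monocytes after CTT alone, a log2 fold change of 0.29 ± 0.074 (edgeR adjusted p = 0.0315). Psma5 had 68.0, 62.2 and 63.3 CPM in monocytes after anti-Ly6G with CTT, against 56.8, 55.2 and 54.1 CPM in monocytes after CTT alone, a log2 fold change of 0.22 ± 0.062 (edgeR adjusted p = 0.0451). For both, the groups did not overlap. Of the 5 that did not pass, Psma2 at 0.20 ± 0.062, Psma4 at 0.17 ± 0.055 and Psma6 at 0.14 ± 0.054 also had groups that did not overlap, while Psma3 at 0.018 ± 0.060 and the barely detected Psma8 at −0.074 ± 0.43 overlapped.

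In the beta ring, 4 of 7 genes rose and the median log2 fold change was 0.25. Of the catalytic subunits, Psmb5, which carries the chymotrypsin-like site, rose. Psmb5 had 91.5, 86.8 and 70.9 CPM in monocytes after anti-Ly6G with CTT, against 63.9, 67.7 and 62.6 CPM in monocytes after CTT alone. The groups did not overlap, but anti-Ly6G replicate 3 lay near the CTT libraries; the log2 fold change was 0.36 ± 0.094 (edgeR adjusted p = 0.0351). Psmb6, which carries the caspase-like site, had 77.3, 71.9 and 75.4 CPM after anti-Ly6G with CTT, against 67.5, 68.5 and 61.6 CPM after CTT alone, a log2 fold change of 0.19 ± 0.065 that did not pass (edgeR adjusted p = 0.0906). Psmb7, which carries the trypsin-like site, did not pass either, with 99.4, 94.9 and 91.1 CPM against 84.0, 87.2 and 78.6 CPM and a log2 fold change of 0.19 ± 0.065 (edgeR adjusted p = 0.0780). For both the groups did not overlap.

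The other beta subunits hold no active site. Psmb3 had 81.9, 78.6 and 77.4 CPM in monocytes after anti-Ly6G with CTT, against 62.1, 62.9 and 64.7 CPM in monocytes after CTT alone. These groups were well apart, with a log2 fold change of 0.33 ± 0.057 (edgeR adjusted p = 0.00643). Psmb2 had 76.3, 71.8 and 73.2 CPM in monocytes after anti-Ly6G with CTT, against 60.0, 63.4 and 59.9 CPM in monocytes after CTT alone, a log2 fold change of 0.27 ± 0.059 (edgeR adjusted p = 0.0173). Psmb4 had 148, 130.3 and 141 CPM in monocytes after anti-Ly6G with CTT, against 120.3, 118 and 114 CPM in monocytes after CTT alone, a log2 fold change of 0.25 ± 0.065 (edgeR adjusted p = 0.0336). Neither pair of groups overlapped. The fourth, Psmb1, had the highest level of the ring and a log2 fold change of 0.056 ± 0.058, with overlapping groups.

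None of the 6 ATPases of the 19S base, Psmc1 to Psmc6, passed in edgeR, although 4 had an unadjusted p under 0.05, as did 31% of all tested genes, and the groups of 5 did not overlap. No ATPase passed by DESeq2 or limma-voom either, but Psmc1 passed with the replicate block and without CTT replicate 1, and Psmc6 without CTT replicate 2. All 6 log2 fold changes were above 0, with a median of 0.20. The one of smallest p was Psmc3. It had 133, 119.9 and 123 CPM after anti-Ly6G with CTT, against 109.9, 109 and 111 CPM after CTT alone, a log2 fold change of 0.19 ± 0.060 (edgeR adjusted p = 0.0668). Psmc5 was the one with overlapping groups, at 0.060 ± 0.075.

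Of the 11 non-ATPase subunits of the cap, 4 rose, all of them components of the lid, and the median log2 fold change was 0.15. Psmd13 had 92.2, 91.5 and 88.0 CPM in monocytes after anti-Ly6G with CTT, against 73.6, 70.9 and 71.4 CPM in monocytes after CTT alone. The groups were far apart relative to their spread, and the log2 fold change of 0.33 ± 0.055 had the smallest adjusted p of the 44 genes (edgeR adjusted p = 0.00528). Psmd8 had 149.8, 134 and 133 CPM in monocytes after anti-Ly6G with CTT, against 114, 112 and 113 CPM in monocytes after CTT alone, a log2 fold change of 0.30 ± 0.064 (edgeR adjusted p = 0.0163). Psmd6 had 69.8, 65.8 and 70.6 CPM in monocytes after anti-Ly6G with CTT, against 61.3, 53.5 and 59.1 CPM in monocytes after CTT alone, a log2 fold change of 0.25 ± 0.070 (edgeR adjusted p = 0.0466). For Psmd8 and Psmd6 too the groups did not overlap.

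Psmd14, the metalloprotease that removes ubiquitin chains from substrates, passed only just. Psmd14 had 76.9, 73.2 and 79.7 CPM in monocytes after anti-Ly6G with CTT, against 62.0, 67.2 and 67.9 CPM in monocytes after CTT alone, a log2 fold change of 0.22 ± 0.064 (edgeR adjusted p = 0.0499). Psmd3, a lid subunit, fell just outside with nearly the same p. It had 119, 114 and 118 CPM after anti-Ly6G with CTT, against 100.2, 107 and 98.4 CPM after CTT alone, a log2 fold change of 0.20 ± 0.058 (edgeR adjusted p = 0.05001). DESeq2 and limma-voom both called Psmd3, whereas Psmd14 was called by DESeq2 but not by limma-voom. The scaffold subunits of the base were smaller in log2 fold change, at 0.15 ± 0.055 for Psmd1 and 0.13 ± 0.061 for Psmd2. The ubiquitin receptor Psmd4 was at 0.065 ± 0.054, and none of these passed.

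Among the 5 genes of other activators and the inhibitor PI31, only Psme2 rose. Psme2 had 106, 107 and 107 CPM in monocytes after anti-Ly6G with CTT, against 94.6, 87.2 and 90.6 CPM in monocytes after CTT alone, a log2 fold change of 0.23 ± 0.057 (edgeR adjusted p = 0.0265) with groups that did not overlap. Its partner in the PA28 ring, Psme1, had 199, 200.3 and 204 CPM after anti-Ly6G with CTT, against 189, 189 and 197 CPM after CTT alone, a log2 fold change of 0.071 ± 0.053 (edgeR adjusted p = 0.411). The difference between the changes of the partners was not tested. Psme2b, a gene nearly identical to Psme2 and outside the naming rule, had 51.9 ± 4.36 CPM after anti-Ly6G with CTT and 47.8 ± 1.12 CPM after CTT alone (SD, n = 3 each), and reads of the pair may have been exchanged, so the value of Psme2 is uncertain. The nuclear activator Psme3, the PA200 activator Psme4 and the inhibitor Psmf1 had log2 fold changes of 0.092 ± 0.060, 0.12 ± 0.064 and −0.0099 ± 0.070, with overlapping groups and none past the threshold.

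None of the 7 assembly chaperones passed in edgeR, none had an unadjusted p under 0.05, and none passed by DESeq2 or limma-voom. They comprise Psmg1 to Psmg4, which build the core, and Psmd5, Psmd9 and Psmd10, which build the base. Their median log2 fold change was 0.05. Psmd5 had the smallest p, with 39.1, 38.0 and 40.1 CPM after anti-Ly6G with CTT, against 36.3, 33.2 and 37.2 CPM after CTT alone, a log2 fold change of 0.14 ± 0.072 (edgeR adjusted p = 0.234). Psmg3 had a larger log2 fold change of 0.23 ± 0.16 with a larger error, at 12.9 ± 0.136 CPM after anti-Ly6G with CTT and 11 ± 2.29 CPM after CTT alone (SD, n = 3 each). The standard errors of the chaperones, the least expressed role, were 0.07 to 0.16 on the log2 scale, beside 0.05 to 0.09 for the 12 genes that rose.

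**Figure D3:**
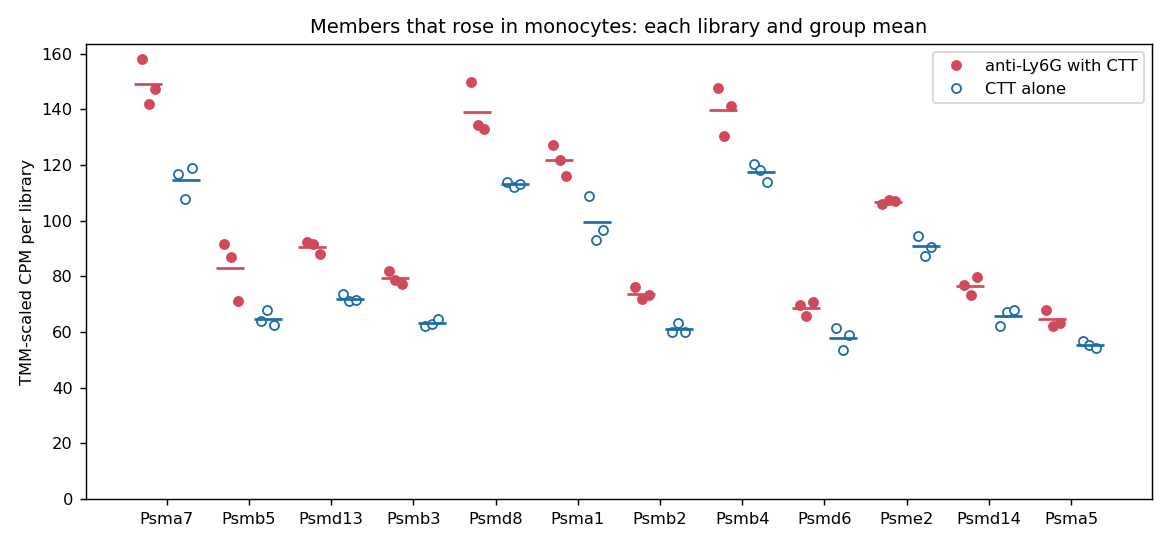
TMM-scaled CPM in each monocyte library (y axis, from 0) for the 12 proteasome genes that rose (x axis, ordered by log2 fold change); filled points are anti-Ly6G with CTT, open points CTT alone, and bars are means of 3 libraries. The groups do not overlap for any of the 12, and the distance between their means is 1.17-fold to 1.30-fold.

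The number of calls depended on single libraries, over the 44 genes and over all tested genes. Leaving out 1 library gave 3 calls without anti-Ly6G with CTT replicate 1, 6 without replicate 2 and 5 without replicate 3. It gave 13 without CTT replicate 1, 5 without replicate 2 and 3 without replicate 3. Of all tested genes, 10.2% rose with all libraries. That share was 5.63%, 6.44% and 6.87% without anti-Ly6G with CTT replicates 1, 2 and 3. Without CTT replicates 1, 2 and 3 it was 12.5%, 6.46% and 5.22%. Psma7, Psmb3 and Psmd13 passed in all 6 of these fits. Psmb2 and Psmd8 passed in 3, Psmb4 and Psmb5 in 2, Psma1, Psma5, Psmd6 and Psme2 in 1, and Psmd14 in 0. Outside the 12, Psma2 and Psmc1 passed without CTT replicate 1 and Psmc6 without CTT replicate 2. The number of calls also changed with the scaling: upper-quartile scaling gave 5 calls, again with 0 lower, while 8.04% of all tested genes rose. It moved the median of all genes to −0.05 on the log2 scale, where that of the 44 was 0.11.

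The promoters of the 3 genes that passed in every such fit are shown, together with that of Psmb5, the catalytic subunit that rose, to let their sequences be compared. Each runs from 250 bases before to 50 bases after the start site, 5′ to 3′ on the strand of the gene, from RefSeq on GRCm38.p6. Capitals mark, on either strand, the antioxidant response element core TGACNNNGC, which NRF1 and NRF2 bind, the NF-Y box CCAAT and the ETS core CGGAAG.
Psma7 promoter, chr2:180042415-180042714, minus strand: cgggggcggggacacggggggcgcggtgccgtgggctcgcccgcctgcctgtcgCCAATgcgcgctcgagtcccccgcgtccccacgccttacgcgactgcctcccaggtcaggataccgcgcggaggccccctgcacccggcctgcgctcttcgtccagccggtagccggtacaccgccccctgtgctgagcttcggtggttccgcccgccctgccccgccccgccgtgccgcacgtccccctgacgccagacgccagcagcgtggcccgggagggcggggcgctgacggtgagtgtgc
Psmb3 promoter, chr11:97703184-97703483, plus strand: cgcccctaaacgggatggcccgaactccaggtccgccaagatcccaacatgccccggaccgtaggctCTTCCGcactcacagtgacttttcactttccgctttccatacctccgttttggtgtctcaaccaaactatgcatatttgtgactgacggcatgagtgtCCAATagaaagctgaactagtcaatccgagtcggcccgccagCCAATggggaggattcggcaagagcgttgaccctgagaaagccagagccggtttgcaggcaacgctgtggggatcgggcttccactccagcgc
Psmd13 promoter, chr7:140882144-140882443, plus strand: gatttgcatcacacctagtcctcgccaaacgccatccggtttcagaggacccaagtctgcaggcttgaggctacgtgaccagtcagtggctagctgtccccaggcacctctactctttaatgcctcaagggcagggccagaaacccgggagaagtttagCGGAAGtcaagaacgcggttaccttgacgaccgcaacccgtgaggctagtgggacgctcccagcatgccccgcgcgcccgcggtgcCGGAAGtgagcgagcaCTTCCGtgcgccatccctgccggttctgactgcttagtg
Psmb5 promoter, chr14:54617946-54618245, minus strand: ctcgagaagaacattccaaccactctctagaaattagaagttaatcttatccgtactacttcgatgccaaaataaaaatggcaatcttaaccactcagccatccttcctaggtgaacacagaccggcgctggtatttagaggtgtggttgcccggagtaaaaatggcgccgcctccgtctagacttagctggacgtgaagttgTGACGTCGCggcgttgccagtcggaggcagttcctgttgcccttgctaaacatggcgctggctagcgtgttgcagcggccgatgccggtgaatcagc

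These windows shared no motif across all of them. Psmb5 held the single antioxidant response element core among them, 47 bases before the start site. A CCAAT box stood in the windows of Psma7 and Psmb3, and the ETS core in those of Psmb3 and Psmd13. A promoter could be matched for 36 of the 44 genes, and 11 of the 12 that rose. Some genes had more than 1 window, and a gene was counted if any of its windows held a match. The antioxidant response element core was found in 16.7% of the 36 genes, against 16.9% of the 10608 genes tested in monocytes with a promoter. It was found in 1 of the 11 genes that rose. CCAAT was found in 33.3% against 43.1%, the interferon-type motif TTCNNNGAA in 5.56% against 8.36%, and the ETS core CGGAAG in 58.3% against 33.8%. The ETS core occurred in 6 of the 11 genes that rose and in 15 of the other 25. Motifs may overlap each other, and a match describes letters in this window, not binding.

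Of the interferon-inducible subunits, 1 of 3 rose in monocytes. Psmb10, which replaces Psmb7, had 108, 102 and 103 CPM after anti-Ly6G with CTT, against 89.2, 89.8 and 89.6 CPM after CTT alone, a log2 fold change of 0.22 ± 0.055 (edgeR adjusted p = 0.0309). It passed in 1 of the 6 fits that leave out a library, the one without CTT replicate 1. Psmb8, which replaces Psmb5, had a log2 fold change of 0.11 ± 0.054 (edgeR adjusted p = 0.216). Psmb9, which replaces Psmb6, had 132, 145 and 126 CPM against 138, 132 and 134 CPM, with overlapping groups and a log2 fold change of −0.0041 ± 0.066.

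The ratio of each inducible subunit to the constitutive one it replaces was taken within each library from FPKM. Psmb8 over Psmb5 was 2.14, 2.24 and 2.68 in monocytes after anti-Ly6G with CTT and 2.72, 2.67 and 2.94 after CTT alone. The groups overlapped, with a log2 difference of −0.24 (exact permutation test, two-sided p = 0.2). Psmb9 over Psmb6 was 1.72, 2.04 and 1.70 after anti-Ly6G with CTT and 2.07, 1.96 and 2.20 after CTT alone, a log2 difference of −0.19 (exact permutation test, two-sided p = 0.2). Psmb10 over Psmb7 was 0.907, 0.890 and 0.941 after anti-Ly6G with CTT and 0.885, 0.857 and 0.949 after CTT alone, a log2 difference of 0.03 (exact permutation test, two-sided p = 0.7).

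In neutrophils, Psmb8 over Psmb5 was 2.52, 2.73 and 2.44 after CTT and 1.04, 2.50 and 3.28 in controls, Psmb9 over Psmb6 was 0.725, 0.950 and 0.957 after CTT and 0.485, 0.911 and 1.06 in controls, and Psmb10 over Psmb7 was 0.608, 0.820 and 0.910 after CTT and 0.341, 0.705 and 0.923 in controls. Control replicate 1 had the lowest value of each ratio. The log2 differences were 0.33, 0.17 and 0.34 in the same order (exact permutation tests, two-sided p = 0.8, 0.8 and 0.7), and without control replicate 1 they turned to −0.16, −0.17 and −0.07. With 3 libraries against 3 the smallest p possible is 0.1, and over the 6 ratios the Benjamini-Hochberg adjusted values of these exact tests were 0.6 to 0.8.

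**Figure D4:**
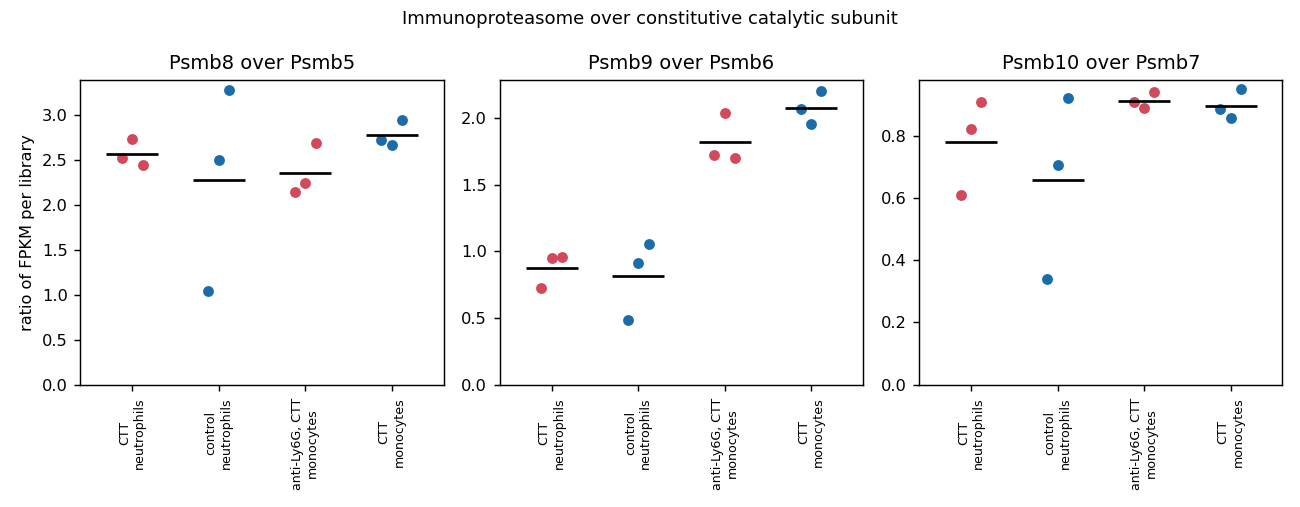
Ratio of FPKM in each library (y axis, from 0) of the interferon-inducible subunit over the constitutive subunit it replaces, for the 4 groups (x axis); points are libraries and bars are means of 3. The neutrophil control points spread widely, with control replicate 1 lowest in each panel, at 1.04, 0.485 and 0.341.

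Proteins that join the proteasome but are named otherwise were followed as a second list, of which 13 were tested in monocytes, and 2 rose (15.4%, against 10.2% of all tested genes) and 0 fell. Sem1, a small subunit of the lid, rose more than any gene of the naming rule. Sem1 had 134, 131 and 116 CPM in monocytes after anti-Ly6G with CTT, against 91.2, 79.1 and 87.0 CPM in monocytes after CTT alone, a log2 fold change of 0.56 ± 0.079 (edgeR adjusted p = 0.00250). Adrm1, a ubiquitin receptor of the cap, had 73.8, 69.6 and 73.9 CPM after anti-Ly6G with CTT, against 63.6, 60.2 and 62.7 CPM after CTT alone, a log2 fold change of 0.22 ± 0.059 (edgeR adjusted p = 0.0385). Groups did not overlap for either. Sem1 passed in all 6 fits that leave out a library, Adrm1 in 1 of them, the one without CTT replicate 1. Pomp, which completes assembly of the core, and Uchl5, the deubiquitinase that Adrm1 recruits, did not pass, with log2 fold changes of 0.22 ± 0.066 and 0.24 ± 0.073 (edgeR adjusted p = 0.0574 and 0.0590); DESeq2 called Uchl5 too, and Pomp passed without CTT replicate 1.

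NRF1 is the factor that raises proteasome genes when proteasome activity is short. Of 9 genes around it, 4 rose in monocytes (44.4%, against 10.2% of all tested genes) and 0 fell (against 5.12%). Nfe2l1, the gene of NRF1, was not among them. It had 164, 154 and 155 CPM after anti-Ly6G with CTT, against 186, 169 and 177 CPM after CTT alone, a log2 fold change of −0.17 ± 0.062 (edgeR adjusted p = 0.0976). Ddi2, the protease that activates NRF1, rose by a log2 fold change of 0.43 ± 0.086 (edgeR adjusted p = 0.0119). Mafg, a DNA-binding partner of NRF1 and NRF2, rose by 0.39 ± 0.067 and Nfe2l2, the gene of NRF2, by 0.38 ± 0.063 on the log2 scale (edgeR adjusted p = 0.00588 and 0.00498). Bach1, a repressor that competes for the same sites, rose most. It had 147, 155 and 137 CPM after anti-Ly6G with CTT, against 94.6, 86.9 and 94.7 CPM after CTT alone, a log2 fold change of 0.67 ± 0.069 (edgeR adjusted p = 0.000584). Bach1, Mafg and Nfe2l2 passed in all 6 fits that leave out a library, and Ddi2 in all but that without CTT replicate 3. DESeq2 and limma-voom called the same 4 genes. Maff, also of this list, had a log2 fold change of −0.42 ± 0.25 and was called lower only without anti-Ly6G with CTT replicate 2.

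None of 13 ubiquitin receptor and p97 genes passed in edgeR, with 1 unadjusted p under 0.05, that of Vcp, the p97 ATPase, at 0.18 ± 0.063 (edgeR adjusted p = 0.0832). None of 9 genes of MHC class I peptide loading passed in edgeR, with 0 unadjusted p-values under 0.05 and a median log2 fold change of 0.0017. DESeq2 and limma-voom likewise called 0 in both lists.

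Markers of other cells moved between the monocyte groups beside these genes. The 12 neutrophil markers summed to between 13350 and 18060 CPM after anti-Ly6G with CTT and between 4817 and 6646 CPM after CTT alone, and 11 of 12 rose. The 9 red pulp macrophage markers summed to between 6795 and 7389 CPM after anti-Ly6G with CTT and between 8281 and 13600 CPM after CTT alone, and 6 of 9 fell. The 14 cell cycle genes summed to between 2077 and 2349 CPM after anti-Ly6G with CTT and between 1694 and 1906 CPM after CTT alone, and 7 of 14 rose. The 8 B cell markers summed to between 2746 and 3800 CPM after anti-Ly6G with CTT and between 3595 and 5236 CPM after CTT alone, and 2 of 8 fell. The 12 erythroid markers summed to between 833 and 1360 CPM after anti-Ly6G with CTT. After CTT alone they summed to between 1423 and 2257 CPM, and 2 of 12 fell. Of the 10 monocyte markers themselves, 6 rose and 3 fell. Among all tested genes, 10.2% rose and 5.12% fell. No marker of these lists was at 0 in any library. Their part in the changes of the proteasome genes was not tested.

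In neutrophils, none of the 44 genes passed in edgeR in either direction, 12 h after CTT against controls. Of all tested genes, 0.567% rose and 0% fell. An unadjusted p under 0.05 was found for 1 of the 44, against 14% of all tested genes. DESeq2 and limma-voom also called 0, with 7 and 1 unadjusted p-values under 0.05, beside 2319 and 1480 of 13058 tested genes. In edgeR that count over the 44 depended on the setting: it was 8 with upper-quartile scaling, 11 with library totals and 3 without a filter. Over all tested genes it was 1869 of 13058, 2029 of 13058 and 2068 of 16805 in that order. With 1 library left out the count over the 44 was 25 without control replicate 3, 8 without control replicate 2 and 1 without control replicate 1. Over all tested genes it was 2662 of 13284, 1848 of 13301 and 2119 of 13295 in that order. Without any one CTT library it was 0 of the 44, beside 944 to 1311 of all tested genes. The log2 fold change was below 0 for 42 genes and above 0 for 2, Psmd8 at 0.091 ± 0.12 and Psme1 at 0.051 ± 0.14 (that of Psme1 fell below 0 with library totals as the scaling). The median was −0.43 over the 44 genes beside −0.02 over all genes. Each CTT library was below each control library for 16 of the 44 (36.4%), against 11% of all tested genes.

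Most of that median depended on 1 library, control replicate 1, which stood apart from the others. It was the highest of the 6 libraries for 40 of the 44 genes, against 36% of all tested genes. Its value was 1.77-fold that of the mean of the other controls in the median over the 44 genes, with a range of 0.822-fold to 3.21-fold, and it exceeded 1.5-fold for 32 of them (72.7%), against 20.9% of all tested genes. The 44 genes took 0.323%, 0.33% and 0.324% of counts in CTT neutrophils and 0.575%, 0.371% and 0.351% in control replicates 1, 2 and 3. Without control replicate 1 the median log2 fold change of the 44 was −0.10, with 36 genes below 0 and 8 above, and 0 passed in edgeR with 1 unadjusted p under 0.05. The library also had the highest sums of erythroid markers, 13850 CPM, against 2387 and 798 CPM in the other controls and 421 to 910.1 CPM in CTT neutrophils, and of cell cycle genes, 5963 CPM, against 1411 and 1671 CPM in the other controls and 1151 to 1458 CPM in CTT neutrophils. Its B cell markers were lowest, at 2911 CPM. The part of these cells in its proteasome values was not tested.

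**Figure D5:**
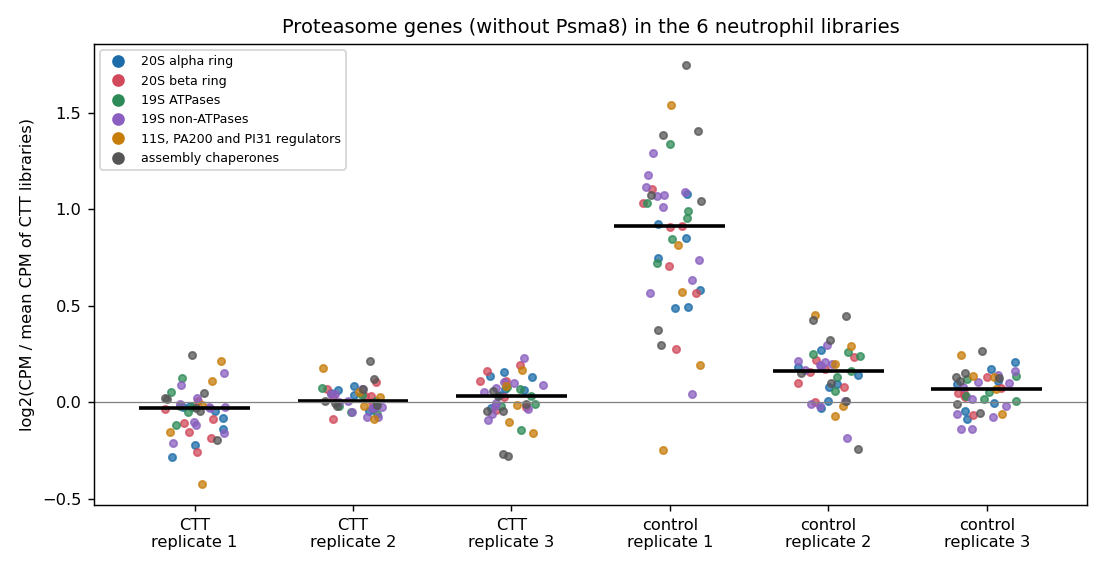
Log2 ratio of the CPM of each proteasome gene to its mean over the CTT libraries (y axis) in each of the 6 neutrophil libraries (x axis); each point is 1 gene, without the barely detected Psma8, and each bar the median over genes. Control replicate 1 stands above the other 5 libraries, while control replicates 2 and 3 lie close to the CTT libraries.

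The gene of smallest p in each role showed the same form. In the alpha ring this was Psma7. Psma7 had 93.8, 94.4 and 102 CPM in CTT neutrophils, against 175, 107 and 112 CPM in control neutrophils, a log2 fold change of −0.44 ± 0.20 (edgeR adjusted p = 0.370). In the beta ring it was Psmb7. Psmb7 had 62.3, 71.3 and 65.1 CPM in CTT neutrophils, against 143, 77.2 and 68.5 CPM in control neutrophils, a log2 fold change of −0.54 ± 0.28 (edgeR adjusted p = 0.395). Among the ATPases it was Psmc5. Psmc5 had 49.6, 56.6 and 55.0 CPM in CTT neutrophils, against 104, 64.5 and 59.0 CPM in control neutrophils, a log2 fold change of −0.50 ± 0.23 (edgeR adjusted p = 0.367). In these genes control replicate 1 was far above the other controls, which lay near the CTT libraries.

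The lid gene Psmd13 showed the same form, with 59.7, 62.5 and 59.9 CPM in CTT neutrophils, against 128, 70.2 and 67.8 CPM in control neutrophils. Psmf1, the inhibitor gene, had 37.4, 30.3 and 28.9 CPM in CTT neutrophils, against 93.8, 44.1 and 35.3 CPM in control neutrophils, a log2 fold change of −0.84 ± 0.36 (edgeR adjusted p = 0.358). Psmd5, the chaperone of the base, had the smallest p of all 44. It had 37.5, 40.2 and 37.1 CPM in CTT neutrophils, against 99.9, 51.5 and 46.1 CPM in control neutrophils, a log2 fold change of −0.78 ± 0.29 (unadjusted p = 0.0318, edgeR adjusted p = 0.344). Its groups did not overlap.

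For 4 of the 44 genes control replicate 1 was not the highest library, Psme1 and Psme2 of the PA28 pair, Psmd8 and the chaperone Psmg4. Psme1 had 192, 223 and 228 CPM in CTT neutrophils, against 181, 204 and 235 CPM in control neutrophils, so that control replicate 1 was the lowest library. Psme2 had 43.5, 66.2 and 65.6 CPM in CTT neutrophils, against 66.9, 71.5 and 69.2 CPM in control neutrophils, and here the lowest library was CTT replicate 1. The log2 fold changes were 0.051 ± 0.14 for Psme1 and −0.24 ± 0.18 for Psme2 (edgeR adjusted p = 0.874 and 0.516). Psme3, the nuclear activator, again followed the other genes, with 253, 231 and 219 CPM in CTT neutrophils, against 412, 231 and 225 CPM in control neutrophils.

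In neutrophils the related lists gave 0 of 3 inducible subunits, 0 of 13 associated proteins, 0 of 9 genes around NRF1 and 0 of 13 receptor and p97 genes past the threshold in edgeR. Their unadjusted p-values under 0.05 numbered 0, 2, 3 and 2 in that order, beside 14% of all tested genes. DESeq2 called Zfand2a, Zfand5, Maff and Mafk higher and no other gene of these lists, and limma-voom called 0. Of all tested genes, DESeq2 called 3.49% higher and limma-voom 0.528%, against 0.567% in edgeR. Without control replicate 1, edgeR called Zfand2a, Maff and Mafk higher, and 1.93% of all tested genes. Zfand2a, a stress-induced partner of the proteasome, had 51.1, 53.5 and 75.1 CPM in CTT neutrophils, against 22.5, 30.3 and 27.4 CPM in control neutrophils, a log2 fold change of 1.16 ± 0.20 (edgeR adjusted p = 0.0799). Mafk, a small Maf partner of NRF1 and NRF2, had 162, 159 and 196 CPM in CTT neutrophils, against 99.9, 106 and 107 CPM in control neutrophils, a log2 fold change of 0.73 ± 0.12 (edgeR adjusted p = 0.0795). Maff, another small Maf protein, had 73.1, 63.7 and 151 CPM in CTT neutrophils, against 14.5, 24.9 and 26.3 CPM in control neutrophils, a log2 fold change of 2.13 ± 0.39 (edgeR adjusted p = 0.0848). For each of these the CTT libraries lay above all control libraries.

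Some values depend on how overlapping genes were counted, since no source used here states the strand setting. By the GENCODE annotation of GRCm38, 10 of the 44 genes have exons that overlap another annotated gene, among them Psma5, Psmb5 and Psmd13 of the 12 that rose in monocytes. The largest overlap with a tested gene was 329 bases, between Psmd13 and Sirt3 on the opposite strand. Sirt3 averaged 11.7 CPM after anti-Ly6G with CTT and 11.7 CPM after CTT alone, a log2 fold change of −0.0016 ± 0.12 (edgeR adjusted p = 0.995), far below the level of Psmd13.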

How the data were processed

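The 44 genes, their roles and the lists of related genes and cell type markers were chosen with earlier results of these data known. Libraries were made from TRIzol-extracted total RNA by means of the VAHTS Universal V6 reagents, according to the labels' protocols. For each cell type the authors deposited a table of raw read counts and one of FPKM values. The submitters' processing notes name HISAT2, HTSeq and mm10; their versions, the annotation and the use of strand were not given in the sources used here. The deposited FPKM values equal the count divided by library total and gene length, up to a constant, and were used here for levels between genes, for ratios and in alternatives.

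Groups and replicate numbers came from the sample titles, and 0 columns were left out. Each cell type was fitted alone to the deposited counts, using edgeR 4.0.16 under R 4.3.3: filterByExpr (13058 genes kept in neutrophils, 13294 in monocytes), TMM scaling, the two-sided quasi-likelihood F test, and Benjamini-Hochberg adjustment over all tested genes with a threshold of 0.05. SE is the absolute log2 fold change divided by the square root of F. CPM values are TMM-scaled. The common biological coefficient of variation of neutrophils was 0.275, that of monocytes 0.114. No 2 libraries agreed within counting error (chi-square per degree of freedom at least 12.6). The fit was run on simulated counts that had the same dispersion in both cell types. Changes as small as those of the proteasome genes in monocytes were not simulated, nor was the wider spread of neutrophils. Alternatives were other scalings, filters, DESeq2 1.42.0, limma 3.58.1 (voom on counts, trend on log2 FPKM), a replicate block and each library left out. Named genes were all past the threshold, the smallest p in each role, catalytic and activator subunits, the 3 highest and lowest levels, and related genes of smallest p. Psma2, Psma3, Psma4, Psma6, Psmd1, Psmd2, Psmd3, Psmd4, Psmc1, Psmc6, Psmg3, Psmg4, Psme2b, Psmc3ip, Psme3ip1 and Sirt3 were named after their values were seen. Some related genes are not reported here. RefSeq promoters (GRCm38.p6) and GENCODE exons (GRCm38) were matched by symbol, and mm10 is the same assembly.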

Additional observations from a re-analysis of the deposited data

How the results depend on the processing

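In neutrophils the counts of proteasome genes past the threshold were 0 higher and 0 lower under every alternative run, and in monocytes the count lower was 0 under every alternative. The monocyte count higher, 12, was 9 with DESeq2 size factors, library totals or no filter, 13 with a minimum of 1 CPM or DESeq2, 12 with limma-voom and 9 with limma-trend on log2 FPKM plus 1 or 0.1. Of all tested genes, 9.16% rose with DESeq2 size factors, 8.84% with library totals and 7.82% with no filter. With a minimum of 1 CPM 11.3% rose, with DESeq2 11.8%, with limma-voom 10.3% and with this limma-trend 10.6%. The count over the 44 was 5 with upper-quartile scaling and 6 with limma-trend without a filter, which tests more genes. There 8.04% and 5.21% of all tested genes rose. The count was between 3 and 13 with 1 library left out, which leaves fewer samples. The cause of these differences was not tested. Whether the replicate numbers pair the libraries is not stated and could not be settled from 3 numbers. Same-numbered deviations correlated at 0.248, 0.000146 and 0.234 in neutrophils and 0.167, −0.0558 and 0.222 in monocytes. Differently numbered ones correlated at −0.258 to 0.222 in neutrophils and −0.234 to 0.087 in monocytes. With the replicate block, 14 proteasome genes were higher in monocytes and 0 in neutrophils, and over all genes 1551 rose and 1043 fell in monocytes against 1354 and 681 without it, and 4 rose and 1 fell in neutrophils against 74 and 0. By DESeq2, 456 genes rose and 107 fell in neutrophils, and 1566 rose and 1204 fell in monocytes. Leaving out 1 library, the log2 ratio differences ranged in neutrophils from −0.16 to 0.67 for Psmb8 to Psmb5, −0.17 to 0.39 for Psmb9 to Psmb6 and −0.0699 to 0.65 for Psmb10 to Psmb7, and in monocytes from −0.34 to −0.18, −0.28 to −0.14 and −0.0063 to 0.068 in that order; the 3 neutrophil ratios turned without control replicate 1 and that of Psmb10 in monocytes without CTT replicate 2. Single genes that turned were all far from the threshold. In neutrophils Psme1 was at −0.0096 with library totals and at −0.0023 and −0.0022 with limma-trend. With 1 library left out, the log2 fold change ranged in neutrophils from −0.031 to 0.16 for Psme1, −0.34 to 0.045 for Psmd14, −0.45 to 0.044 for Psme3, −0.24 to 0.036 for Psmb8, −0.22 to 0.061 for Psmb9 and −0.20 to 0.093 for Psmb10, and in monocytes from −0.038 to 0.016 for Psmf1, −0.063 to 0.037 for Psmb9, −0.43 to 0.35 for Psma8 and −0.084 to 0.064 for Psmd9. Of 644 values of named genes in monocytes under alternatives, 544 kept direction and side of the threshold and 85 no longer passed. Low counts limit the precision for Psma8 more than for the other 43 genes.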

Other observations

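Other genes with similar symbols fell outside the naming rule. Psmc3ip, a meiotic recombination factor named for its binding to Psmc3, had 2.83, 2.94 and 1.89 CPM in CTT neutrophils, against 15.2, 4.16 and 2.99 CPM in control neutrophils, so that control replicate 1 was again the highest library. In monocytes it averaged 5.71 ± 0.282 CPM after anti-Ly6G with CTT and 5.26 ± 0.177 CPM after CTT alone (SD, n = 3 each). Psme3ip1, named for its binding to Psme3, had log2 fold changes of 0.024 ± 0.073 in monocytes and −0.057 ± 0.12 in neutrophils (edgeR adjusted p = 0.858 and 0.822).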
